A study of Rattus norvegicus with 14 samples.

Results

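The genes described here are Nr3c1, which encodes the glucocorticoid receptor, and 2 genes whose transcription glucocorticoids raise in many tissues, Sgk1 and Per1. They were chosen by name, as the rows ENSRNOG00000014096 (Nr3c1), ENSRNOG00000011815 (Sgk1) and ENSRNOG00000007387 (Per1), 3 of the 32623 genes measured. All 3 were present and passed the filter on low values. The symbols came with that choice, since neither the expression table nor the reference table used here pairs these IDs with names.

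RNA was sequenced from punches of the supraoptic nucleus, the hypothalamic nucleus with the magnocellular neurons that release vasopressin and oxytocin. The donors were male Sprague Dawley rats weighing 250 to 300 g with free access to water. The miCtl group had received an adeno-associated virus with a control microRNA in the nucleus, and the miRasd1 group a virus with a microRNA that targets Rasd1, the gene of a Ras-like G protein. Each group has 7 libraries, titled EH1, EH2, EH3, EH4, EH8, EH11 and EH12 in both, and libraries that share an EH number are called a pair below. Both groups thus carry virus and surgery. The sources used here do not give the age of the rats, the promoter in the virus, the cells it reached or the meaning of the EH number. Nor do they say whether libraries came from separate rats, so each p-value reflects only how these samples spread, which may be technical.

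The glucocorticoid receptor is a nuclear receptor that is held in the cytoplasm by chaperones until it binds cortisol or corticosterone, and then enters the nucleus and acts on transcription at glucocorticoid response elements. SGK1 is a serine/threonine kinase that acts downstream of PI3-kinase and is known for its control of ion channels and transporters, and its transcription is also raised by mineralocorticoids and by osmotic stress. PER1 is a repressor in the feedback loop of the circadian clock, and its gene responds to glucocorticoids, to cAMP signalling and to neuronal activity. Rasd1 was itself found as a gene that the synthetic glucocorticoid dexamethasone induces, which is what links it to these genes. Whether their transcript levels differed between nuclei given the Rasd1 microRNA and the control is the comparison the design allows.

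Reads assigned to genes summed to between 19968058 and 28345441 per library. This sum is called depth below, and it leaves out reads not assigned to a gene. The ID of Rasd1 could not be looked up, so the knockdown itself was not checked here, and neither were the markers of magnocellular neurons, glia and other cells of the punch. Levels are normalised reads, which are read counts divided by a size factor of the library. They are not divided by transcript length, so levels of different genes are not compared with each other. In bulk tissue, fewer cells of a type and less RNA per cell cannot be told apart.

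None of the 3 genes passed the test between the groups. In limma, 0 of 3 had a Benjamini-Hochberg adjusted p under 0.05, where 0.145% of the 15178 genes tested (22) did, and 0 of 3 had an unadjusted p under 0.05, where 9.88% did. With the EH number as a replicate block the counts were again 0 of 3, against 0.988% of genes by adjusted p (150) and 14.9% by unadjusted p. Of the 3 genes, 0 have an adjusted p under 0.05 in the authors' deposited table, against 1.12% of its 15296 genes with an adjusted p. edgeR called 0 of 3 by either p, against 0.119% of genes by adjusted and 10.1% by unadjusted p, and with the block 0 of 3 against 0.916% and 15.1%. DESeq2 also called 0 of 3, against 1.12% and 6.96% without the block and 2.25% and 6.64% with it. Its shares are over other genes than the 15178 of limma and edgeR. By adjusted p they are over 15296 genes without the block and 13975 with it. By unadjusted p they are over 23233 genes without the filter on low values, so these shares are not like for like. Without the block DESeq2 gave the authors' deposited values of the 3 genes again, so it adds no separate support. The limma shares by adjusted p moved when 1 library was left out: the unblocked count of 22 became 1 without miCtl EH4, miCtl EH11, miRasd1 EH1, miRasd1 EH3 or miRasd1 EH12, 2 without miCtl EH12 or miRasd1 EH4, 7 without miCtl EH3, 59 without miRasd1 EH11 and 81 without miRasd1 EH8. The unblocked count stayed between 19 and 25 without miCtl EH1, miCtl EH2, miCtl EH8 or miRasd1 EH2. With the block, whole pairs were left out instead of single libraries. The blocked count of 150 then became 0 without EH1, EH4 or EH12 and 38 without EH3. It was 78 without EH11, 161 without EH2 and 484 without EH8. For all 3 genes the groups overlapped, as they did for nearly every gene, since 0.349% of those tested (53) had groups that did not.

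Nr3c1, the receptor, was the steadiest of the 3. In miCtl it measured 2013, 2043, 2100, 2117, 2151, 2232 and 2356 normalised reads in EH11, EH2, EH8, EH3, EH1, EH4 and EH12. In miRasd1 it measured 1965, 2137, 2144, 2253, 2272, 2289 and 2374 in EH3, EH2, EH4, EH1, EH8, EH11 and EH12. The lowest and the highest of the 14 libraries were both miRasd1, EH3 and EH12, and the other libraries of both groups lay between them. The coefficient of variation was 5.48% in miCtl and 6.10% in miRasd1, where counting noise at this depth alone would give 2.14%.

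Nr3c1 averaged 2145 ± 118 normalised reads over the miCtl libraries and 2205 ± 135 over the miRasd1 libraries (SD, n = 7 each). The log2 fold change was 0.04 (SE 0.04), with a limma adjusted p of 0.851 (0.694 with the block). Its 95% interval ran from −0.05 to 0.13, which is a change of the receptor transcript between −3.72% and 9.69%. The miRasd1 library was higher in 5 of 7 pairs, and the exact two-sided permutation p was 0.390 for 7 against 7 libraries and 0.297 for sign flips over the pairs. In the authors' deposited table the Nr3c1 log2 fold change is 0.04 with a standard error of 0.05 and an adjusted p of 0.898.

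Sgk1 varied most, and its level followed the EH number more than the group. The miCtl libraries measured 1755 (EH1), 1769 (EH2), 2004 (EH11), 2270 (EH3), 3291 (EH12), 3483 (EH8) and 3722 (EH4) normalised reads. The miRasd1 libraries measured 1529 (EH1), 1891 (EH2), 2050 (EH3), 2324 (EH11), 2620 (EH12), 3014 (EH4) and 3502 (EH8). EH4, EH8 and EH12 were the 3 highest in both groups, and EH1 and EH2 the lowest. The highest of the 14 libraries held 2.43 times the lowest, against 1.21 times for Nr3c1. The miCtl values left a gap between 2270 and 3291, and the miRasd1 values had no such gap.

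Sgk1 averaged 2613 ± 855 normalised reads over the miCtl libraries and 2419 ± 681 over the miRasd1 libraries (SD, n = 7 each). The fitted log2 fold change was −0.09 with an SE of 0.20 and a limma adjusted p of 0.943. The 95% interval was wide, from −0.52 to 0.33, a change between −30.0% and 25.4%. With the block the SE was 0.06, the adjusted p 0.511 and the interval −0.23 to 0.04. Sgk1 was lower in 4 of 7 pairs, by as much as 0.33 on the log2 scale in EH12, and higher in the other 3, by up to 0.21 in EH11. The exact permutation p was 0.695 between groups and 0.281 for sign flips. Leaving out 1 library, and so unbalancing a pair, turned the sign of this small difference without miCtl EH4 (0.00168) or miRasd1 EH1 (0.00750). Leaving out the whole pair kept it below 0 for each of the 7, at −0.06 without EH4, −0.08 without EH1 and −0.15 to −0.06 over all. In the authors' deposited table the Sgk1 log2 fold change is −0.11 with a standard error of 0.23 and an adjusted p of 0.962.

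**Figure D1:**
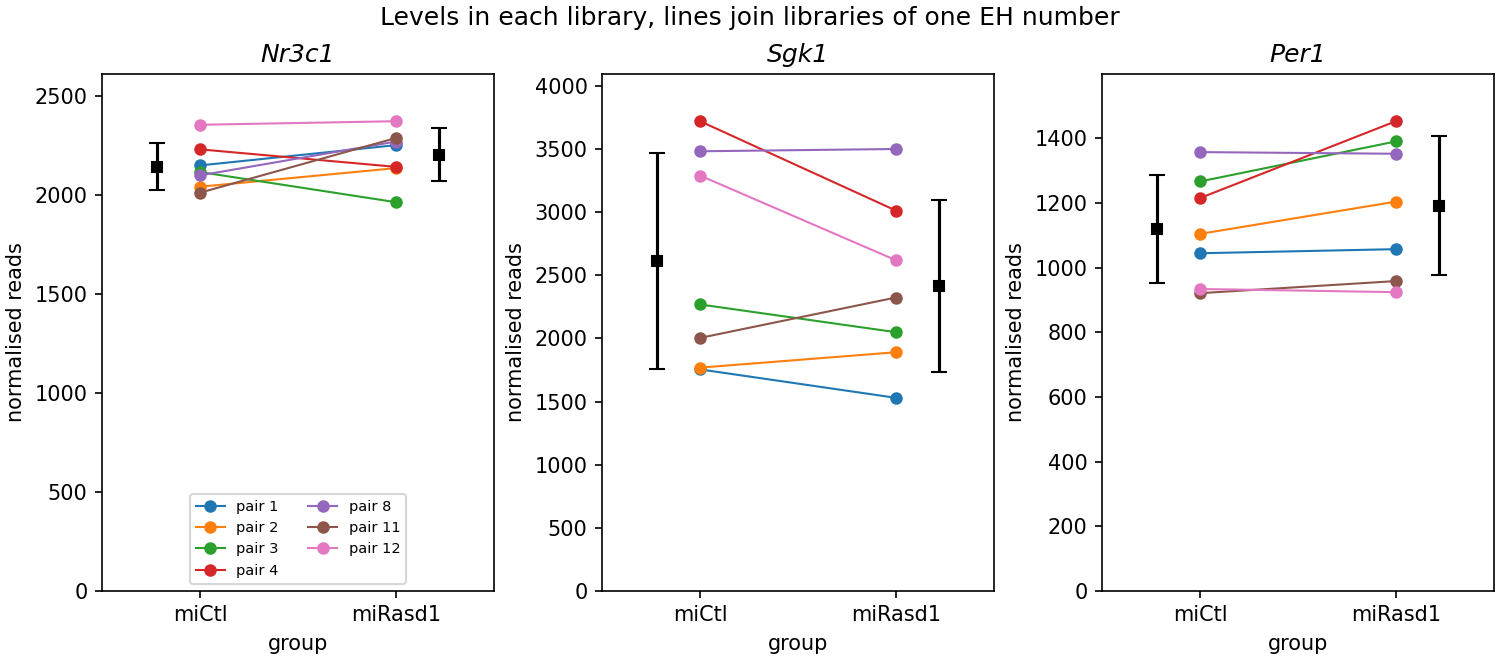
Normalised reads (vertical axes, from 0) of Nr3c1, Sgk1 and Per1 in each library by group; a line joins the miCtl and the miRasd1 library of one EH number, and black squares with bars are group means ± SD (n = 7). Nr3c1 stays between 1965 and 2374, Sgk1 spreads from 1529 to 3722 with EH4, EH8 and EH12 on top in both groups, and Per1 spreads from 921 to 1453 with EH11 and EH12 at the bottom in both.

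Per1 lay between the other 2 genes in its spread. In miCtl the libraries measured 921 (EH11), 934 (EH12), 1044 (EH1), 1104 (EH2), 1215 (EH4), 1266 (EH3) and 1357 (EH8) normalised reads. In miRasd1 they measured 924 (EH12), 958 (EH11), 1057 (EH1), 1204 (EH2), 1352 (EH8), 1390 (EH3) and 1453 (EH4). EH11 and EH12 were lowest and EH3, EH4 and EH8 highest in both groups, so EH12 was among the high libraries for Sgk1 and among the low ones for Per1.

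Per1 averaged 1120 ± 167 normalised reads over the miCtl libraries and 1191 ± 215 over the miRasd1 libraries (SD, n = 7 each). The log2 fold change was 0.08 (SE 0.11), with a limma adjusted p of 0.888 and a 95% interval from −0.15 to 0.32. With the block the SE was 0.04, the adjusted p 0.364 (unadjusted 0.0605) and the interval −0.004 (−0.00422) to 0.17. Per1 was higher in miRasd1 in 5 of 7 pairs, most in EH4, by 0.26 on the log2 scale, and in the other 2 pairs the difference was −0.01 (EH8) and −0.02 (EH12). The exact permutation p was 0.530 between groups and 0.0781 for sign flips over the pairs, a test that cannot go below 0.0156. In the authors' deposited table the Per1 log2 fold change is 0.09 with a standard error of 0.11 and an adjusted p of 0.911.

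**Figure D2:**
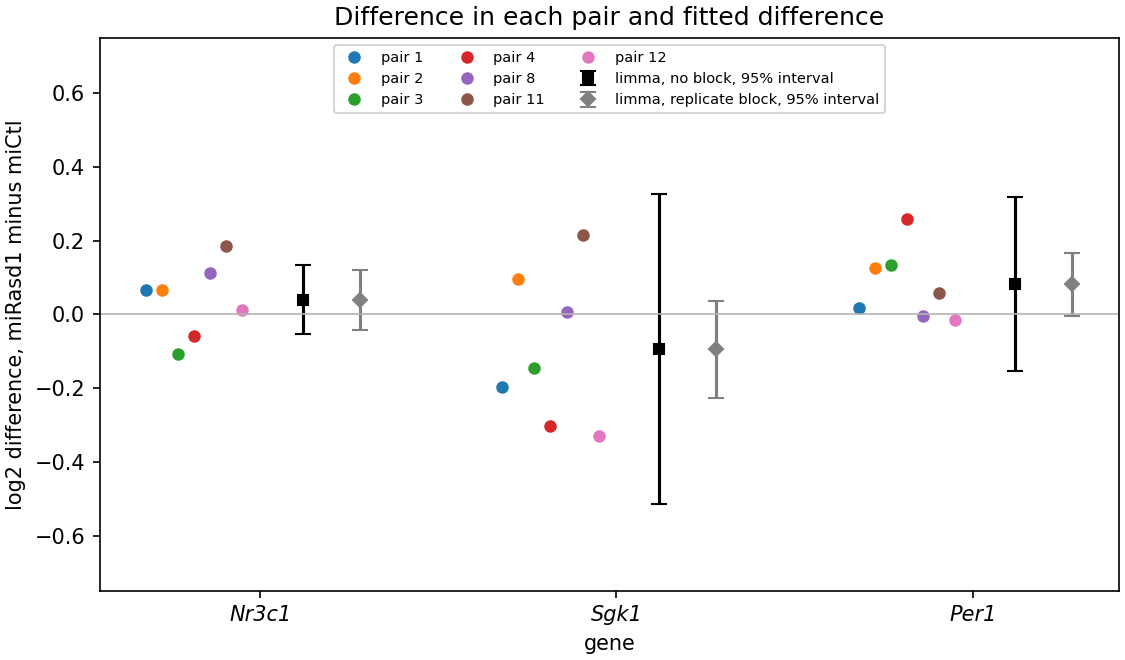
Log2 difference, miRasd1 minus miCtl, of Nr3c1, Sgk1 and Per1: coloured points are the 7 pairs, and black squares and grey diamonds are the limma log2 fold change without and with the replicate block, with 95% intervals. All 6 intervals include 0, and the block narrows that of Sgk1 from −0.52 to 0.33 down to −0.23 to 0.04 and that of Per1 from −0.15 to 0.32 down to −0.004 to 0.17.

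How far the level followed the EH number was measured by the correlation of a gene's 7 miCtl and 7 miRasd1 log2 levels matched by number. For Sgk1, Pearson's r was 0.90 (exact permutation p = 0.00655, 0.00982 adjusted over the 3 genes) and Spearman's rho 0.93 (exact permutation p = 0.00675, adjusted 0.0202). For Per1, r was 0.94 (exact permutation p = 0.00496, adjusted 0.00982) and rho 0.82 (exact permutation p = 0.0341, adjusted 0.0512). For Nr3c1, r was 0.29 (exact permutation p = 0.517) and rho 0.14 (exact permutation p = 0.783). Without the 2 numbers whose miCtl level lay farthest from the miCtl median, r was 0.80 for Sgk1 (without EH4 and EH8, exact permutation p = 0.10) and 0.98 for Per1 (without EH8 and EH11, exact permutation p = 0.0167). The relation for Sgk1 thus no longer passed the threshold with 5 numbers, and for Nr3c1 r turned to −0.23 (without EH4 and EH12, exact permutation p = 0.742). Leaving out the farthest numbers narrows the range and leaves fewer values, which by itself can lower r and raise p.

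Set beside all 15178 genes tested, whose median r was 0.29, Nr3c1 lay in the middle, at the 50.2nd percentile. An r as high as that of Sgk1 was found in 1.63% of genes, and one as high as that of Per1 in 0.712%. The residual SD of log2 levels without the block was 0.08 for Nr3c1, 0.44 for Sgk1 and 0.24 for Per1, at the 22.2nd, 94.1st and 77.9th percentile of genes. With the block it was 0.07, 0.15 and 0.07, and the percentiles were 25, 65.1 and 23.5. Once the EH number was accounted for, Per1 was about as steady as Nr3c1 (0.0691 and 0.0708). These percentiles describe the libraries and are no test, since genes are not independent.

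**Figure D3:**
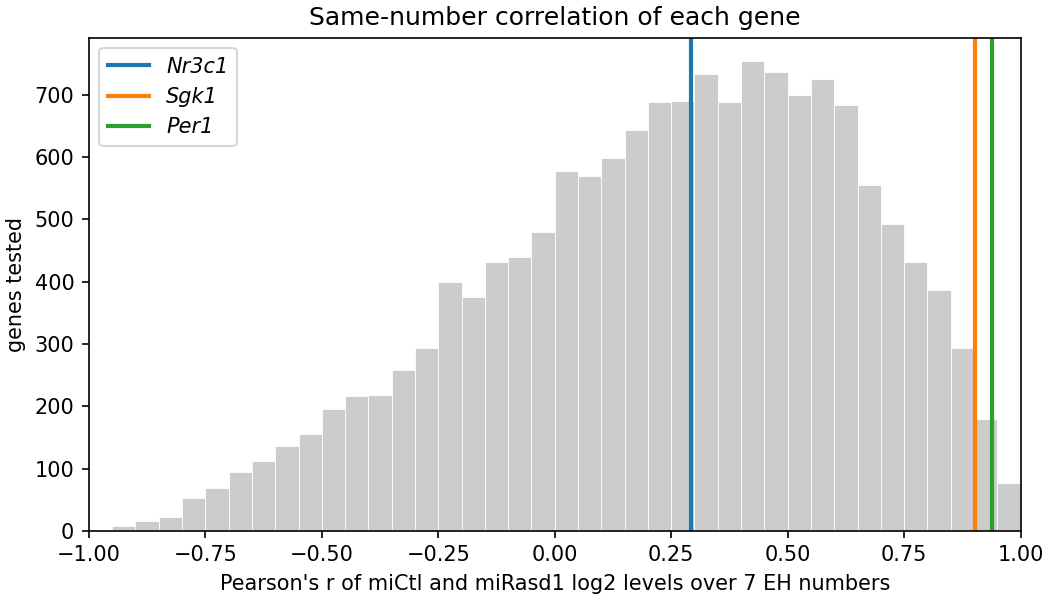
Histogram over 15178 genes of Pearson's r between miCtl and miRasd1 log2 levels (horizontal axis) matched over the 7 EH numbers; bar height is the number of genes, and vertical lines mark Nr3c1, Sgk1 and Per1. Nr3c1 (0.29) sits at the centre, and Sgk1 (0.90) and Per1 (0.94) lie in the upper tail, where 1.63% and 0.712% of genes have an r as high.

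The levels were also set beside measures of the libraries. The share of normalised reads held by the 10 most abundant genes, averaged over a pair, ran from 7.15% in EH3 and 7.35% in EH2 to 8.04% in EH4, 8.07% in EH8 and 8.15% in EH12. Its correlation with the pair's mean log2 level was r = 0.79 and rho = 0.75 for Nr3c1 (exact permutation p = 0.0196 and 0.0663), and r = 0.81 and rho = 0.75 for Sgk1 (exact permutation p = 0.0446 and 0.0663). For Per1 it was r = −0.16 and rho = −0.11 (exact permutation p = 0.710 and 0.840). Over the 6 relations of pair means with this share and with depth, the smallest adjusted p was 0.118 (exact permutation), so none passed once adjusted. Without EH2 and EH3, whose share lay farthest from the median, r was 0.46 for Nr3c1 and 0.94 for Sgk1 (exact permutation p = 0.383 and 0.0417). Single libraries were also compared, by deviations from the group mean over all 14, with no p computed. There r with this share was 0.79 for Nr3c1 (0.74 within miCtl, 0.86 within miRasd1). It was 0.76 for Sgk1 (0.86 and 0.63) and −0.22 for Per1 (0.01 and −0.42). The part of this share in the levels was not tested. With the mean depth of a pair, r was −0.53 for Nr3c1, 0.06 for Sgk1 and 0.13 for Per1 (exact permutation p = 0.241, 0.883 and 0.751), and without EH3 and EH11 it was −0.16, 0.84 and 0.86 (exact permutation p = 0.767, 0.133 and 0.117).

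The receptor and its responsive genes were also compared with each other across the 7 pair differences. The differences of Nr3c1 and Sgk1 had r = 0.72 and rho = 0.61 (exact permutation p = 0.0716 and 0.167), with both highest in EH11. Those of Nr3c1 and Per1 had r = −0.56 and rho = −0.50 (exact permutation p = 0.193 and 0.267), and those of Sgk1 and Per1 r = −0.15 and rho = 0.14 (exact permutation p = 0.753 and 0.783). No relation passed the threshold, before or after adjustment over the 3 (smallest adjusted p 0.215, exact permutation). Without the 2 pairs farthest from the median difference of the first gene named, r was 0.84, 0.23 and −0.33 (exact permutation p = 0.0667, 0.683 and 0.608), so the sign for Nr3c1 and Per1 rested on EH3 and EH4. In EH4 the 2 responsive genes moved apart: miRasd1 minus miCtl was −0.30 for Sgk1 and 0.26 for Per1 on the log2 scale.

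The genes whose pattern was most like each of the 3 were sought among 12037 others that averaged 100 normalised reads or more, by the correlation of deviations from the group mean over the 14 libraries, which share EH numbers. For Nr3c1 it was ENSRNOG00000003923 (r = 0.93), for Sgk1 ENSRNOG00000000274 (r = 0.96) and for Per1 ENSRNOG00000032895 (r = 0.94). The gene most like Sgk1 followed the same libraries over a far narrower range, 3581 to 4296 normalised reads over all 14. An r of at least 0.8 was reached by 76 genes with Nr3c1 (0.631%), 28 with Sgk1 (0.233%) and 40 with Per1 (0.332%). An r of −0.8 or lower was reached by 28, 15 and 15 genes. As the largest of 12037, the r of each most alike gene is high by selection and is no test. None of the 3 most alike genes was called by limma, with log2 fold changes of −0.05, −0.05 and 0.00 (0.00369) and adjusted p-values of 0.784, 0.784 and 0.995.

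The RefSeq promoter windows of the 3 genes (GRCr8 assembly, 250 bases before to 50 after a start, both strands) were searched for AGAACA, the half-site of a glucocorticoid response element, and for CACGTG, the E-box of the clock factors. Neither was found in the 2 windows of Nr3c1, the 3 of Sgk1 or the 1 of Per1. Over all 33469 windows, AGAACA was present in 20.7% and CACGTG in 6.42%. The result covers these letters in these windows only, and response elements of glucocorticoid target genes often lie farther from the start.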

How the data were processed

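Reads went through FastQC, STAR, featureCounts and DESeq2, per the submitters' processing notes. Which genome build, versions and strand setting applied was not given in the sources used here. For 32623 Ensembl IDs the authors deposited a signal per library, a read count divided by 1 size factor, and per gene their log2 fold change, a standard error and a Wald score, and their p-value with its adjusted form. Dividing by each library's smallest step turned 100% of the non-zero values into whole reads (tolerance 0.001). Because the values are normalised, limma (3.58.1, trend) was the main test, on log2(value + 1) of genes with at least 10 in at least 7 libraries, with Benjamini-Hochberg adjustment over all 15178. Fold changes are on that scale, where the added 1 understates changes of low genes. edgeR (4.0.16) and DESeq2 (1.42.0) on recovered reads, other scalings, pseudocounts and filters, and each library or pair left out, were alternatives. Fits were tested on simulated counts, with the same variation beyond counting noise for all genes and no effect of the EH number. That test therefore does not cover what the block gains, or genes as variable as Sgk1. Single values were compared by exact two-sided permutation tests.

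Libraries with the same EH number deviated together over genes (r 0.20 to 0.40, median 0.30, all 7 above the bound of 0.1; different numbers −0.23 to 0.14), so the pairing, read from the titles and the values, is used as a block beside the unblocked fit. The reference table holds 47357 rat genes and 0 Ensembl IDs, so Rasd1, the lists of glucocorticoid, kinase and clock genes and the cell type markers were not analysed here. The genes, lists and named-gene rule (the 3 genes and, for each, the single most alike ID) were chosen with earlier results of these data known, and the same-number correlation and the relations to depth and to the 10 most abundant genes after the values were seen.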

Additional observations from a re-analysis of the deposited data

Results flagged for a closer look

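In miRasd1, the library of EH11 stood apart in depth, with 28345441 reads assigned to genes. Its gap to the next library was 0.586 of the group's range, above the limit of 0.568 for 7 samples. It was the 1 case among 15 sets of 7 values examined, where chance gives about 1 in 20, and no set of Nr3c1, Sgk1 or Per1 values passed the limit. Without this library the log2 fold changes were 0.03 for Nr3c1, −0.09 for Sgk1 and 0.13 for Per1, with limma adjusted p-values of 0.907, 0.943 and 0.767.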

How the results depend on the processing

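Over 39 alternatives per gene, 0 called Nr3c1, Sgk1 or Per1. Nr3c1 kept its sign in all 39 (log2 fold change 0.01 to 0.07, adjusted p 0.572 to 0.978), as did Per1 (0.03 to 0.14, adjusted p 0.256 to 0.979). In limma, neither the block, with all pairs complete, nor the filter can change a log2 fold change, so adding them does not test the sign. Sgk1 ran from −0.19 to 0.01 (adjusted p 0.249 to 0.999), above 0 only without miCtl EH4 (0.00168) or miRasd1 EH1 (0.00750), and below 0 without any whole pair. With the replicate block, which changed no call of the 3 genes, the unadjusted limma p fell under 0.05 for Per1 without EH8 (0.0418) or EH12 (0.0434) and for Sgk1 without EH11 (0.0208), fits in which 18.0%, 11.9% and 13.8% of all genes did so. The correlation of pair differences turned to 0.23 for Nr3c1 and Per1 without EH3 and EH4, and to 0.34 for Sgk1 and Per1 over deviations of 14 libraries. The same-number r was −0.23 for Nr3c1 and 0.80 for Sgk1 without 2 numbers. Of all genes tested, limma called 22 unblocked and 150 with the replicate block, edgeR 139 with the block, and DESeq2 172 without and 314 with it. Leaving out a library gave 1 to 81 calls, and leaving out a pair 0 to 484 with the block and 0 to 39 without it. For these changes the cause was not tested. The planned gene lists could not be run without symbols. Counting noise of 1.99% to 2.93% compares with coefficients of variation of 5.48% to 32.7% within a group.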
